A study of Mus musculus with 4 samples.

Results

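The genes described here encode 9 chemoattractant receptors other than Xcr1: Ccr7, Ccr1, Ccr2, Ccr8, Cxcr3, Cxcr4, Cx3cr1, the atypical receptor Ccrl2 and the oxysterol receptor Gpr183. They were chosen by annotated gene symbol among 17278 named genes on the array, and each was read by 1 probe set. The cells came from C57BL/6 mice, 10 weeks old and female by the labels, and the series names them as type 1 conventional dendritic cells (cDC1), which present antigens of dead cells to CD8 T cells. XCR1-deficient (KO) cells received lipopolysaccharide (LPS, a bacterial ligand of Toll-like receptor 4, 100 ng/ml) with recombinant mouse XCL1 (100 ng/ml), or LPS alone, and wild-type (WT) cells received the same 2 treatments. XCL1 is the ligand of XCR1. All 4 groups received LPS, so no group shows the receptors before activation, and the sources used here do not give the tissue, the length of treatment or the site of the deletion. Each group had 1 array, so no value below has a replicate error and no test was run.

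Chemokine receptors are G-protein-coupled receptors of the cell surface that steer cells along gradients of chemokines, mostly through Gi proteins. Dendritic cells that mature after a microbial signal are known to lose receptors for inflammatory chemokines and to gain CCR7, which takes them to the T cell zone of lymph nodes. CXCR4 and GPR183 respond to cues made by stromal cells of bone marrow and lymphoid tissue, CXCR4 to the chemokine CXCL12 and GPR183 to hydroxylated cholesterol.

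Values are log2 array signals summarised by RMA, and a difference of 1 on this scale is 2-fold. A gene was counted as differing when 2 arrays were at least 1.5-fold apart (0.585) and at least 1 of the 4 arrays gave it a signal of 5.43, the median of all values, or more. That limit is no measured background, since no detection flags were used, and it kept 11075 genes and 8 of the 9 receptor genes. Signals of different probe sets are not set against each other, because probes differ in how strongly they bind. On the 4 arrays Xcr1 gave 5.11 (KO, LPS and XCL1), 5.54 (KO, LPS), 7.19 (WT, LPS and XCL1) and 6.42 (WT, LPS), lower in KO in both pairs. The names of the KO and WT arrays carry different prefixes, 2 in all with 0 shared, and a batch of arrays therefore cannot be told apart from the genotype. Xist gave 4.57 and 4.64 on the KO arrays, against 7.91 and 7.95 on the WT arrays, and a difference in sex cannot be told apart from the genotype either.

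Of the 9 genes, 5 were clear of the dim range, with every signal above 6.91, the 75th percentile of all values. These were Ccr7, Cxcr4, Gpr183, Ccrl2 and Cx3cr1. Ccr2 and Cxcr3 lay between. Ccr8 was near the dim range, its highest signal within 1.5-fold of the limit, and Ccr1 stayed below the limit on all 4 arrays.

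**Figure D1:**
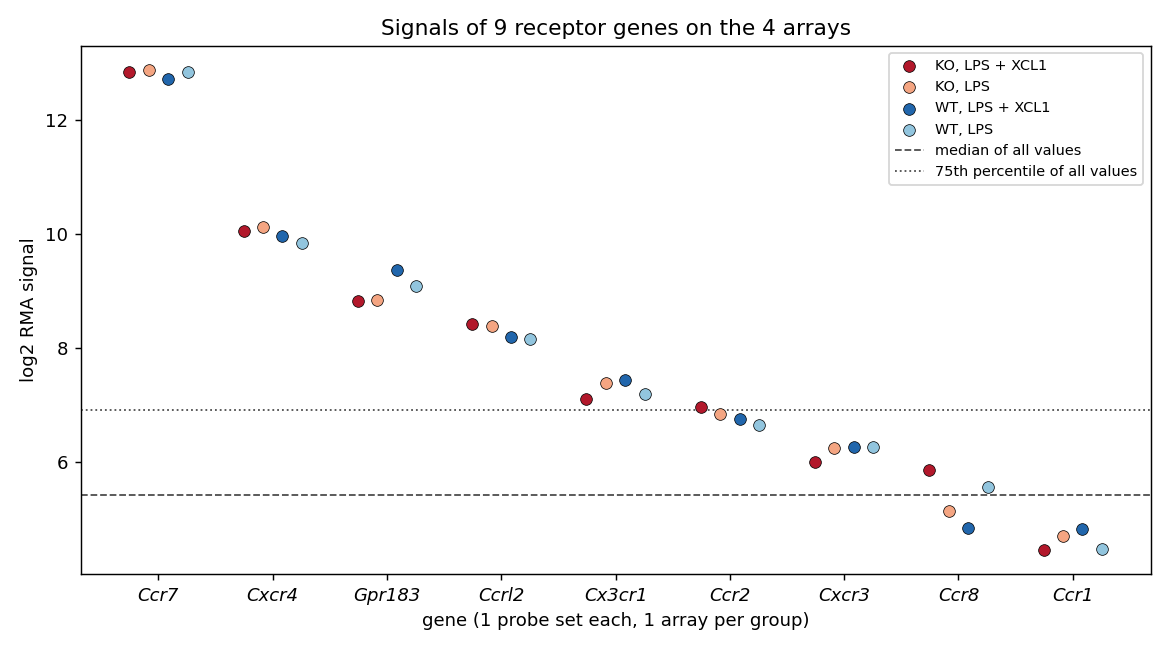
Log2 RMA signal (vertical axis) of each of the 9 receptor genes on the 4 arrays, 1 point per array, ordered by mean signal; the dashed line is the median of all values (5.43) and the dotted line the 75th percentile (6.91). Ccr7 lies near 12.8 on every array, Ccr8 crosses the median, and Ccr1 lies below it on all 4 arrays.

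Of the 9 genes, 8 had a RefSeq promoter window (build GRCm38.p6), taken here as the 250 bases before the annotated start. The windows shown are those of Cxcr4, with the most CpG pairs, and of Ccr8, which shares the fewest with Ccr1 and Ccr2. A relation of CpG content to signal was not tested. Gpr183 and Cx3cr1, clear of the dim range as Cxcr4 was, had fewer pairs than the median of all windows. CG pairs are in capitals.
Cxcr4, chr1:128592300-128592549, minus strand: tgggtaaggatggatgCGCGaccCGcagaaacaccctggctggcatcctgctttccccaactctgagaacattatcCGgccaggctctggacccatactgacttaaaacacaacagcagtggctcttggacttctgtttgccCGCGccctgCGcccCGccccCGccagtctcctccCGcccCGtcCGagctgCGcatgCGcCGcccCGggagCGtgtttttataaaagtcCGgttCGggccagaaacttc
Ccr8, chr9:120091883-120092132, plus strand: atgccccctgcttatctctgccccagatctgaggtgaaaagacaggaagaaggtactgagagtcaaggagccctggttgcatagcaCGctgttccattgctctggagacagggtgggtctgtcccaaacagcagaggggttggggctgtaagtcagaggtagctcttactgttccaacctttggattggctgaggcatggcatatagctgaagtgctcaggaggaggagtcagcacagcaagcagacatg
The Cxcr4 window held 19 CpG pairs and the Ccr8 window 1, where the median of all 32851 promoter windows was 6. Ccr1 and Ccr2 also had 1 each, Gpr183 had 2, Cxcr3 had 3 and Cx3cr1 had 4, and the 3 windows of Ccrl2 had 5 to 7. A TATA box (TATAAA on either strand) was found in 1 of the 8 genes, Cxcr4, and in 12.4% of all windows. A GC box (GGGCGG on either strand) was found in 2, Cxcr4 and 1 window of Ccrl2, and in 32.7% of all windows. Both motifs are descriptions of these letters and were chosen with the signals known.

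CCR7, the receptor for CCL19 and CCL21 that takes mature dendritic cells to lymph nodes, had the steadiest reading of the 9 genes. Ccr7 gave 12.85 (KO, LPS and XCL1), 12.89 (KO, LPS), 12.72 (WT, LPS and XCL1) and 12.85 (WT, LPS). The KO and WT arrays overlapped, and all 4 values lay within 0.17. With XCL1, Ccr7 differed by -0.04 in KO and -0.13 in WT, and 81.8% and 41.2% of all genes past the limit differed by at least as much in the same pairs.

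CXCR4 recognises CXCL12 and holds cells in bone marrow and lymphoid niches. Cxcr4 gave 10.05 (KO, LPS and XCL1), 10.12 (KO, LPS), 9.97 (WT, LPS and XCL1) and 9.84 (WT, LPS). Both KO arrays were above both WT arrays, by 0.09 with LPS and XCL1 and by 0.28 under LPS alone. XCL1 went with -0.07 in KO and 0.13 in WT. Its ligand gene Cxcl12 was below the limit on all 4 arrays, with signals from 4.70 to 4.90.

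GPR183, also called EBI2, is a receptor for oxysterols that positions B cells, T cells and dendritic cells within lymphoid tissue. Among the genes clear of the dim range it had the widest spread over the arrays. Gpr183 gave 8.83 (KO, LPS and XCL1), 8.85 (KO, LPS), 9.37 (WT, LPS and XCL1) and 9.08 (WT, LPS). Both KO arrays lay below both WT arrays. The gap was 0.55 with LPS and XCL1, which is 1.46-fold and just short of the threshold, and 0.23 under LPS alone. With LPS and XCL1, 4.6% of all genes past the limit differed by at least that much, and with LPS 28.2% did. XCL1 went with a Gpr183 difference of -0.02 in KO and 0.29 in WT, and 9.7% of genes moved at least as far in the WT pair. Genes of oxysterol handling gave no 1.5-fold difference. Ch25h, which makes the precursor of the GPR183 ligand, gave 7.05 and 6.90 in KO (LPS and XCL1, then LPS) and 7.21 and 6.78 in WT. Hsd3b7, an enzyme that breaks the ligand down, gave 5.81 and 5.89 in KO and 6.01 and 6.04 in WT, and Cyp7b1, which completes the ligand, stayed below the limit.

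CCRL2 is an atypical receptor that binds chemerin without signalling through G proteins, and activated myeloid cells are known to raise it. Ccrl2 gave 8.42 (KO, LPS and XCL1), 8.38 (KO, LPS), 8.19 (WT, LPS and XCL1) and 8.16 (WT, LPS). Both KO arrays were above both WT arrays, and the 2 genotype differences were alike, 0.23 with LPS and XCL1 and 0.23 under LPS alone. The treatment pairs were closer together, with 0.04 in KO and 0.04 in WT.

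CCR2 and CCR1 are receptors for inflammatory chemokines. CCR2, the receptor for CCL2 that brings monocytes out of bone marrow, is used by myeloid precursors as well. Ccr2 gave 6.96 (KO, LPS and XCL1), 6.84 (KO, LPS), 6.75 (WT, LPS and XCL1) and 6.65 (WT, LPS). Both KO arrays were above both WT arrays, by 0.21 with LPS and XCL1 and by 0.19 under LPS alone, and XCL1 went with 0.12 in KO and 0.11 in WT. CCR1, a receptor for CCL3 and CCL5, is lost by maturing dendritic cells. Ccr1 gave 4.45 (KO, LPS and XCL1), 4.71 (KO, LPS), 4.82 (WT, LPS and XCL1) and 4.47 (WT, LPS), and no difference is read from these values because all of them were below the limit. The genes of both these ligands were far above the limit on every array. Ccl3 gave 11.95 and 12.01 in KO and 11.81 and 12.06 in WT, and Ccl5 gave 12.91 and 12.87 in KO and 12.72 and 12.76 in WT, each with LPS and XCL1 and then with LPS. Ccl6, the gene of another CCR1 ligand, lay near the limit, at 5.47 and 5.41 in KO and 5.50 and 5.42 in WT.

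CX3CR1 is the receptor for fractalkine, a chemokine tethered to cell membranes, and is a marker of monocytes and their progeny. Cx3cr1 gave 7.11 (KO, LPS and XCL1), 7.38 (KO, LPS), 7.44 (WT, LPS and XCL1) and 7.19 (WT, LPS). The KO and WT arrays overlapped, as did the arrays with and without XCL1. XCL1 went with -0.27 in KO and 0.26 in WT. The genotype differences also had opposite signs, -0.34 with LPS and XCL1 and 0.19 under LPS alone. The difference between the XCL1 effects, KO minus WT, was -0.53, and 4.15% of genes past the limit differed by at least that much.

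CXCR3 guides effector T cells and NK cells to sites where interferon-gamma induces CXCL9, CXCL10 and CXCL11. Cxcr3 gave 6.00 (KO, LPS and XCL1), 6.25 (KO, LPS), 6.27 (WT, LPS and XCL1) and 6.27 (WT, LPS). Both KO arrays lay below both WT arrays, by 0.27 with LPS and XCL1 and by 0.02 under LPS alone. Of all genes past the limit, 26.8% and 92.9% differed by at least as much. Under LPS alone the sign turned, to 0.02 with cyclic loess and 0.08 with centring. The ligand genes were higher in KO in both genotype pairs, and a relation to Cxcr3 was not tested. Cxcl11 gave 9.61 and 9.46 in KO (LPS and XCL1, then LPS), against 8.73 and 8.92 in WT, which is 0.89 higher in KO with LPS and XCL1 and 0.54 under LPS alone. Cxcl9 was 0.34 and 0.40 higher in KO and Cxcl10 was 0.31 and 0.29 higher, in the same order, all short of 1.5-fold.

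CCR8 marks regulatory and type 2 helper T cells and binds CCL1 and, in mice, CCL8. Ccr8 gave 5.86 (KO, LPS and XCL1), 5.14 (KO, LPS), 4.85 (WT, LPS and XCL1) and 5.56 (WT, LPS). The highest and the lowest value both came from arrays with XCL1, and KO and WT arrays overlapped. As measured, Ccr8 differed with XCL1 by 0.71 in KO and by -0.71 in WT. KO minus WT was 1.01 with LPS and XCL1 and -0.42 under LPS alone. Of these 4 differences each has 1 value below the limit. With values below the limit raised to it, the XCL1 differences were 0.43 in KO and -0.13 in WT. KO minus WT with LPS and XCL1 was then 0.43, or 1.35-fold. The limit is no measured background, so these raised values are no lower bounds of a difference. Ccr8 passed that limit only on the arrays that gave 5.86 and 5.56, and those values also enter the differences. Its ligand gene Ccl1 gave 5.35 and 5.61 in KO and 5.39 and 5.38 in WT, and Ccl8 stayed below the limit.

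Counted over the 8 receptor genes past the limit, Ccr8 was the 1 gene that reached 1.5-fold in any pair. It was the 1 called gene with XCL1 in KO, where 1.01% of all 11075 genes were called, and the 1 with XCL1 in WT, where 0.56% were. For the difference between the XCL1 effects it was again the 1 called gene, at 1.43, against 2.89% of all genes. KO against WT with LPS gave 0 of 8, against 2.02% of all genes, and KO against WT with LPS and XCL1 gave 1 of 8, against 3.48%. Among genes with a mean signal under 6, as that of Ccr8, the shares called were higher, at 2.27% with XCL1 in KO, 1.46% in WT, 6.57% when these effects were compared, and 4.19% between the genotypes with LPS and XCL1. With values below the limit raised to it, 0 of 8 receptor genes were called in any comparison, beside 0.605% of all genes with XCL1 in KO, 0.244% in WT and 1.86% when the effects were compared. For KO against WT, 2.75% were then called with LPS and XCL1 and 1.55% under LPS alone.

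**Figure D2:**
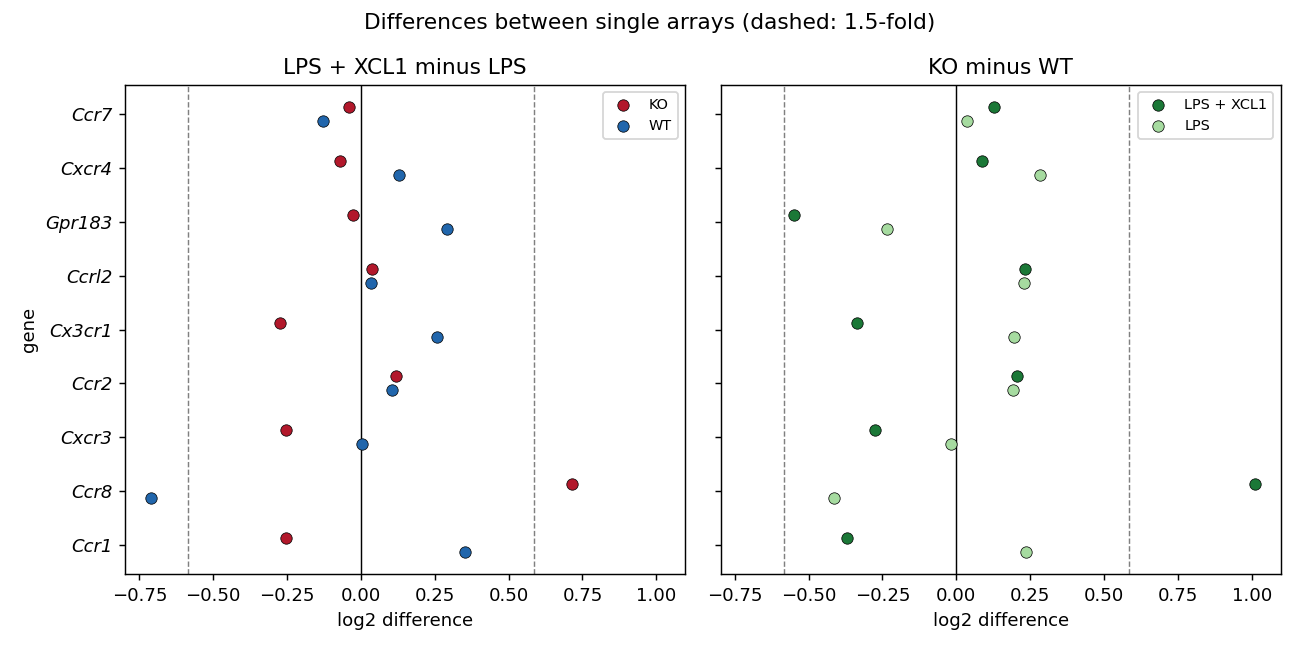
Log2 differences between single arrays for the 9 receptor genes: LPS and XCL1 minus LPS in KO and WT cells (left), and KO minus WT with LPS and XCL1 and with LPS (right). Dashed lines mark 1.5-fold. Ccr8 lies beyond them in 3 of the 4 pairs, and Gpr183 comes close for KO minus WT with LPS and XCL1.

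The median difference of the 8 genes with XCL1 was -0.03 in KO and 0.07 in WT, beside 0.04 and 0.03 over all genes past the limit. For KO against WT their medians were 0.11 with LPS and XCL1 and 0.12 under LPS alone, beside -0.04 and -0.05 over all genes. Each genotype pair has an array in common with each XCL1 pair, so these medians are not independent of one another. A yardstick for the noise of 1 probe set came from 443 genes read by several, in which the log2 difference varied between the probe sets of a gene with a pooled SD of 0.209 with XCL1 in KO, 0.175 with XCL1 in WT, 0.229 between the genotypes with LPS and XCL1, and 0.213 under LPS alone. By that measure 5, 5, 3 and 4 of the 8 receptor genes differed by less than 1 SD, in the same order. The share of all genes within 1 SD is not given here, so these counts are not read as a result about the receptors. The yardstick holds no spread between animals or cultures.

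**Figure D3:**
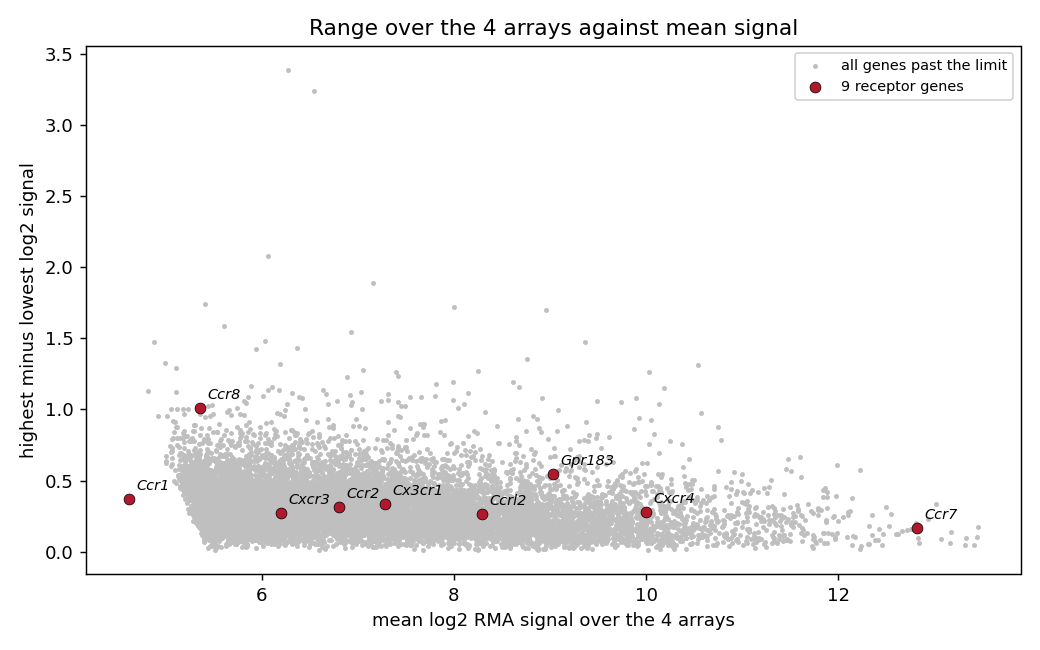
Highest minus lowest log2 signal over the 4 arrays (vertical axis) against the mean log2 signal (horizontal axis) for 11075 genes past the limit (grey) and the 9 receptor genes (red), of which Ccr1 is below the limit. Ccr8 stands at 1.01 and Gpr183 at 0.55, and the other 7 genes lie between 0.17 and 0.37.

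The range over the 4 arrays placed the receptor genes among all genes past the limit, whose median range was 0.29. Ccr8 spanned 1.01, a range that 0.659% of genes matched or exceeded. Gpr183 spanned 0.55, matched or exceeded by 10.4%. For genes with a mean signal of at least 8 the median range was 0.22 and the 95th percentile 0.56. Ccr7, Cxcr4, Ccrl2, Ccr2, Cxcr3 and Cx3cr1 spanned 0.17 to 0.34, and between 38.8% and 80.7% of genes ranged at least as widely. The genes whose signals were most like those of Ccr8 over the 4 arrays, each centred on its own mean, were Ptma-ps2, Pls1 and Aldh1b1, with root-mean-square differences of 0.04, 0.11 and 0.12. Ptma-ps2 is a processed copy of the prothymosin gene, Pls1 encodes an actin-bundling protein and Aldh1b1 a mitochondrial aldehyde dehydrogenase. Ptma-ps2 and Pls1 also crossed the limit, with 5.53 and 5.59 in KO cells given LPS and XCL1, against 4.62 and 4.71 in WT cells given both.

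Across genotype, 3 of the 8 genes were higher on both KO arrays than on both WT arrays (Ccr2, Cxcr4 and Ccrl2) and 2 were lower on both (Cxcr3 and Gpr183). Such a split is common here, with 52.1% of all genes past the limit not overlapping, 18.9% higher and 33.3% lower in KO. Centring each array on its gene median added 0.10 to both genotype differences and turned the split over all genes to 35.3% higher and 17.8% lower. Relative to that shift, Ccr7 joined the higher genes, Ccr2, Cxcr4 and Ccrl2 stayed higher, Gpr183 stayed lower and Cxcr3 overlapped. With cyclic loess Cxcr3 overlapped too.

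Markers of several other cell types that carry these receptors differed between the genotypes as well, and their part in the receptor differences was not tested. B cells and T cells express GPR183, CCR7 and CXCR4, and effector T cells CXCR3. Of these receptor genes, Gpr183 and Cxcr3 were lower on both KO arrays, Cxcr4 was higher on both, and Ccr7 overlapped. All 9 measured B cell markers were lower in KO in both genotype pairs, with a mean log2 signal of 7.43 and 7.43 on the KO arrays and 8.05 and 7.99 on the WT arrays. Cd79b, a subunit of the B cell receptor, was lower by 1.01 with LPS and XCL1 and by 0.77 under LPS alone. Of 8 T cell markers, 7 and 8 were lower in KO, with list means of 6.30 and 6.39 in KO and 6.75 and 6.81 in WT. With centring, 7 and 5 of them were lower. No B or T cell marker was below the limit on all arrays. Plasmacytoid DC markers had means of 8.03 and 8.16 in KO and 8.35 and 8.36 in WT, with 4 and 5 of 7 lower. Among them Ly6d differed by -1.22 and -0.35, while Klk1 and Tcf4 were higher in KO in both pairs. For these direction counts, 6290 and 6663 of all 11075 genes past the limit were lower in KO. Monocytes carry CCR2, CX3CR1 and CCR1, and neutrophils carry CCR1. Macrophage and monocyte markers had means of 7.92 and 7.80 in KO and 7.66 and 7.76 in WT, with 6 and 3 of 8 higher. Among these Fcgr1 was higher in KO by 1.19 and 1.00 (LPS and XCL1, then LPS). The median difference of that list was 0.09 and -0.07 in the same order. Neutrophil markers had means of 7.02 and 6.84 in KO and 6.59 and 6.55 in WT, with 7 and 8 of 8 higher. The 4 measured red cell markers had means of 6.55 and 6.57 in KO and 5.49 and 5.47 in WT, with 4 and 4 higher. NK cell markers had 6.39 and 6.40 in KO and 6.52 and 6.52 in WT, with 6 and 6 of 8 lower, and mast cell and basophil markers had 5.04 and 5.0 in KO and 4.90 and 4.87 in WT, with 5 of 8 below the limit on all arrays. In each pair of counts or means, LPS with XCL1 comes first and LPS alone after it. In bulk samples like these, fewer cells of a type and less RNA per cell cannot be told apart.

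**Figure D4:**
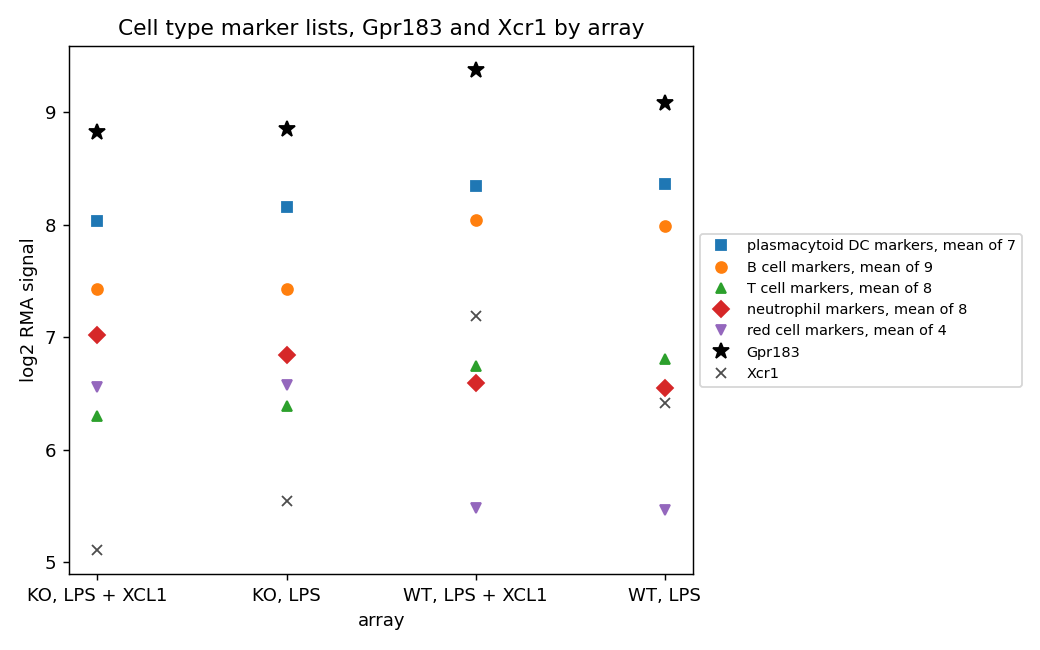
Mean log2 RMA signal of 5 cell type marker lists on each array, with the signals of Gpr183 and Xcr1 (vertical axis, log2; horizontal axis, the 4 arrays). The means of the B cell, T cell and plasmacytoid DC lists and Gpr183 are lower on both KO arrays. The means of the neutrophil and red cell lists are higher. Single plasmacytoid DC markers differ in direction. Cxcr4, which is not plotted, is higher on both KO arrays, and Ccr7, also not plotted, overlaps.

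Values of cDC1 markers were set beside the cDC1 label. Irf8, the transcription factor that sets the lineage, gave 10.16 and 10.05 in KO and 10.01 and 10.04 in WT, and Wdfy4, needed for cross-presentation, gave 8.99 and 8.90 in KO and 9.15 and 9.15 in WT. Batf3 gave 6.95 and 6.98 in KO and 6.78 and 6.93 in WT. Cadm1 gave 7.21 and 7.25 in KO and 7.50 and 7.38 in WT. Tlr3 gave 6.96 and 6.86 in KO and 7.14 and 7.13 in WT. Of 9 measured cDC1 markers, Itgae alone was below the limit on all arrays. Clec9a, also on the list, was not among the measured genes. All measured markers of B cells and of plasmacytoid DCs were past the limit as well, so these values do not settle the label. Of 8 markers of the other conventional subset, 4 were below the limit on all arrays and the other 4 were clear of the dim range. Sirpa gave 8.44 and 8.13 in KO and 8.45 and 8.47 in WT, and the transcription factor gene Irf4 gave 8.39 and 8.41 in KO and 8.63 and 8.65 in WT. Cd209a, a lectin gene, gave 8.65 and 8.29 in KO and 8.04 and 8.30 in WT, and Itgam, which encodes CD11b, gave 8.50 and 8.09 in KO and 7.95 and 8.01 in WT. With LPS and XCL1, Cd209a was 0.62 higher in KO, past 1.5-fold, and Itgam 0.55 higher, short of it.

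Of 15 measured receptor genes outside the 9, 7 were below the limit on all 4 arrays, among them Ccr3, Ccr4, Ccr10 and Cxcr1, and 0 of the 8 others reached 1.5-fold in any comparison. Ccr3 gave 4.83 and 4.43 in KO and 4.14 and 4.10 in WT, more than 1.5-fold apart with LPS and XCL1 as measured, but no call was made between values below the limit. Cxcr5, the receptor that takes B cells to follicles, gave 8.93 and 8.94 in KO and 9.28 and 9.27 in WT, lower in KO by 0.35 with LPS and XCL1 and by 0.33 under LPS alone. Ccr9, a gut-homing receptor of plasmacytoid DCs, gave 6.77 and 6.55 in KO and 7.26 and 7.13 in WT. Its difference of -0.58 with LPS was just short of 1.5-fold.

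Ligand genes of the 9 receptors, including the enzymes that make or clear the GPR183 ligand, gave calls in 1 pair. Of 18 measured, 14 were past the limit, and with LPS and XCL1 2 of these were higher in KO by 1.5-fold, against 3.48% of all genes. They were Cxcl11 (0.89) and Ccl2 (0.62), the CCR2 ligand, with Ccl2 at 7.00 and 6.72 in KO and 6.38 and 6.32 in WT. Ccl12, which gave 4.82 and 4.46 in KO and 4.15 and 4.10 in WT, likewise differed by more than 1.5-fold in that pair, with all its values below the limit. No ligand gene was called in the other 4 comparisons. With centring the counts were 3 with LPS and XCL1 and 2 under LPS alone. All 15 measured genes of receptor signalling and trafficking were past the limit and 0 were called. Of these, Gnb1, a G protein subunit, gave 11.26 and 11.23 in KO and 11.25 and 11.25 in WT, and Rgs1, which shortens Gi signalling, gave 11.80 and 11.66 in KO and 11.58 and 11.60 in WT.

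Several of the receptor genes are neighbours of Xcr1. In RefSeq (GRCm38.p6), 5 of the 9 genes lie on mouse chromosome 9 with Xcr1, and 4 of them within 5 Mb of it. Ccr1 is the next protein-coding gene to Xcr1, with 0 between them, and Ccr2 has 3 between, Ccr8 53, Cx3cr1 54 and the more distant Ccrl2 115. Of the 9 genes, 3 within that distance were past the limit, and of these Ccr2 alone had a genotype difference of the same sign in both pairs. Ccrl2, farther away, had it too, at 0.23 in both. Other receptor genes on chromosome 9 and past the limit were Ccr9, Cxcr5, Cxcr6 and Ackr2, whose distance from Xcr1 was not taken. Ccr9 differed by -0.49 with LPS and XCL1 and -0.58 with LPS, and Cxcr5 by -0.35 and -0.33. In the same order, Cxcr6 differed by 0.18 and 0.22, and Ackr2 by 0.40 and -0.14. A shared sign is common here, as it holds at least for the 52.1% of genes past the limit that did not overlap.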

How the data were processed

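Total RNA of 4 samples was hybridised to MoGene 2.0 ST whole-transcript arrays. Per the labels' descriptions, the authors deposited RMA output for whole genes, which is on the log2 scale. Neither the software nor the annotation build is given in the sources used here. RMA makes the arrays alike in distribution, which hides any change common to most genes. Depth does not apply to arrays, and their number limits the precision.

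Of 41345 probe sets, 25335 were listed in the platform annotation, of which 23521 had a single gene symbol and 1814 had more, and the other 16010 have no name here. Of those with 1 symbol, 23328 were matched by gene ID to RefSeq (GRCm38.p6), which changed 0 symbols. Predicted genes, olfactory receptors, segments of antigen receptors, small RNAs and probe sets with more than 1 symbol were left out. Where a gene had more than 1 probe set, that with the highest mean signal stood for it, which left 17278 genes. Array medians over all probe sets were 5.44, 5.44, 5.40 and 5.43 (KO with LPS and XCL1, KO with LPS, WT with LPS and XCL1, WT with LPS). Correlations between arrays across genes past the limit ran from 0.983 to 0.993 (genes are no replicates of each other).

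Differences were taken between single arrays, with no test. Genes named beside the 9 receptors were Xcr1, members at 1.5-fold in any comparison and the 2 with the highest mean signal in each of 3 fixed lists (other receptors, ligands, signalling partners), and the 3 genes most like a called receptor gene. Other ligand, receptor and marker genes, and Xist, were chosen after their values were seen. The members, lists and thresholds were chosen with earlier results of these data known. The counting step was checked on simulated data with known changes, which gives no error rate for the real counts. Alternatives were a 2-fold threshold, other limits on signal, cyclic loess (limma 3.58.1, span 0.7, 3 iterations), centring, the mean of probe sets and keeping predicted genes. Other steps used Python 3.11.15 with pandas 2.3.3 and numpy 2.4.6.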

Additional observations from a re-analysis of the deposited data

Results flagged for a closer look

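For 3 receptor genes the XCL1 difference had opposite signs in KO and WT, each beyond the SD between probe sets of a gene as measured. Each rests on 1 array per group, and the difference between the genotypes was not tested. The share of all genes with such a pattern is not given here, so the count of 3 is not read as a result about these receptors. For Cx3cr1 the XCL1 difference was -0.27 in KO and 0.26 in WT, -0.53 as KO minus WT, with every signal above the limit. For Ccr8 it was 0.71 in KO and -0.71 in WT, 1.43 as KO minus WT. With values below the limit raised to it, Ccr8 gave 0.43 in KO and -0.13 in WT, the second within the SD of 0.175. For Ccr1 the measured KO minus WT value was -0.61, between signals that were all below the limit, and with values raised to the limit it was 0.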

How the results depend on the processing

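No paired analysis was possible because each group had 1 array and the labels number no replicates. An additive model of genotype and treatment, whose error would be the unequal XCL1 effects, was not fitted. The count of called receptor genes (1 with XCL1 in KO, 1 with XCL1 in WT, 1 for the difference between the effects, 0 for KO against WT with LPS, and 1 with LPS and XCL1) was the same with cyclic loess, centring, the mean of probe sets and predicted genes kept. The mean of probe sets and keeping predicted genes could not change this count. Each receptor gene has 1 probe set, and added genes do not enter the count. At 2-fold the count was 0, 0, 1, 0 and 1. With the limit at the 75th percentile, and with values below the limit raised to it, it was 0 in each, since Ccr8 then fell outside or within 1.5-fold. With no limit the difference between the effects gave 2, as Ccr1 entered. Genes at or near the dim range numbered 2, and 5 with the 75th percentile as the limit.

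Over all genes the counts in the same order were 112, 62, 320, 224 and 385. They were 6, 2, 21, 25 and 42 at 2-fold, 216, 176, 729, 346 and 565 with no limit, and 27, 11, 72, 106 and 197 with the limit at the 75th percentile. Raising values to the limit gave 67, 27, 206, 172 and 305, and keeping predicted genes 183, 96, 464, 297 and 500. Centring turned the split of higher and lower genes from 52 and 60 to 25 and 88 with XCL1 in KO, from 25 and 37 to 13 and 65 with XCL1 in WT, from 112 and 112 to 202 and 53 for KO against WT with LPS, and from 185 and 200 to 339 and 92 with LPS and XCL1. Cyclic loess gave 30 and 28 with XCL1 in WT and 123 and 89 for KO against WT with LPS.

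Single differences of the 9 genes moved by less than the SD between probe sets in 45 of 45 cases with cyclic loess. Centring and the mean of probe sets could give no other result. Within a comparison centring shifts every gene alike, by between -0.07 and 0.10, and each of the 9 genes has 1 probe set. Small differences changed sign, among them Ccrl2 with XCL1 in KO and Cxcr3 in KO against WT with LPS under both loess and centring. Raising values to the limit moved 10, all of Ccr8 and Ccr1, with the Ccr8 difference between the XCL1 effects at 0.56.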
